A study of Mus musculus with 2 samples.

Results

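The mir-181 family of the mouse comprises 6 miRNA genes, Mir181a-1, Mir181a-2, Mir181b-1, Mir181b-2, Mir181c and Mir181d, which were selected by gene name from the 2202 miRNA genes of the deposited count tables. The selection rule used no measured value, although the members were chosen with earlier results of these data known. All 6 genes had reads in both libraries of adrenal gland. Their reads were dominated by the Mir181c and Mir181d pair, which held 83.1% and 83.2% of the reads assigned to the family in replicates 1 and 2. The other 4 genes, whose mature 5p sequences are each encoded by a pair of loci, held the remaining 16.9% and 16.8%. Reads that matched several places were counted for no gene, so exact reads of these shared 5p sequences are missing from the shares. The shares therefore describe assigned reads and not the levels of the mature miRNAs.

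The study sequenced short RNA, below 30 nucleotides, from adrenal gland tissue of adult male mice aged 8 to 10 months. The strain label was 5xFAD/CAST, which combines the name of a transgenic model of amyloid deposition, driven by a neuronal Thy1 promoter, with that of a wild-derived strain. The labels do not state which alleles these animals carried, name no treatment and give no control, so the data form 1 group. Its 2 libraries were labelled biological replicates 1 and 2 and share a single donor record, so the spread between them may be technical in part.

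MicroRNA hairpins of this family release a mature strand from the 5p arm and a less used strand from the 3p arm. Bases 2 to 8 of a mature miRNA, its seed, pair with target transcripts, so genes with a common seed are expected to share many targets. In mouse thymocytes miR-181a is known to raise the sensitivity of the T cell receptor by repressing phosphatases, and in mouse endothelium miR-181b is known to dampen NF-kB signalling through an importin. A role in mitochondria has been described for miR-181c in rat heart cells, and repression of the DNA repair gene MGMT for miR-181d in human glioma cells. The tissue measured here mixes steroid-producing cortex, neuroendocrine medulla, vessels and blood, and a lower count of a miRNA cannot be told apart from fewer cells that make it.

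The mature 5p sequences are shown first because they define the family. They were taken from RefSeq (build GRCm38.p6), which held mature sequences for all 6 genes, and are written 5′ to 3′ with the seed in capitals.

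miR-181a-5p, of Mir181a-1 and Mir181a-2: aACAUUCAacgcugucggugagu

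miR-181b-5p, of Mir181b-1 and Mir181b-2: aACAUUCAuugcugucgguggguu

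miR-181c-5p, of Mir181c: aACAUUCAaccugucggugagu

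miR-181d-5p, of Mir181d: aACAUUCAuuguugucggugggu

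The seed ACAUUCA was common to all 6 genes, and no other gene of the RefSeq table carried it. The sequences differ downstream of the seed. Counting positions from 1 at the 5′ end, with the base of the first-named miRNA first, miR-181a-5p and miR-181b-5p differ by A9U, C10U and A21G, and miR-181b-5p is 1 base longer. From miR-181b-5p to miR-181d-5p there is a single substitution, C12U, and miR-181d-5p is 1 base shorter. The sequence of miR-181c-5p lies 1 edit from miR-181a-5p, which is 1 base longer, and 5 edits from miR-181b-5p and from miR-181d-5p.

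The 3p arms are shown because, unlike the 5p arms, they differ between all 6 genes. Capitals again mark bases 2 to 8.

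Mir181a-1 3p: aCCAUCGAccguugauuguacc

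Mir181a-2 3p: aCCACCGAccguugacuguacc

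Mir181c 3p: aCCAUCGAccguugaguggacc

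Mir181b-1 3p: cUCACUGAacaaugaaugcaa

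Mir181b-2 3p: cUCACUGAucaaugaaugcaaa

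Mir181d 3p: cCCACCGGgggaugaauguca

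By bases 2 to 8, the 3p arms of Mir181a-1 and Mir181c form one group and those of Mir181b-1 and Mir181b-2 another, while Mir181a-2 and Mir181d each stand alone. The 3p arms of Mir181a-1 and Mir181a-2 differ by U5C, inside the seed, and U16C. Those of Mir181a-1 and Mir181c differ by U16G and U19G, outside it. Those of Mir181b-1 and Mir181b-2 differ by A9U, and the Mir181b-2 arm is 1 base longer.

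The genes lie in 3 clusters of 2 on GRCm38 (mm10). Mir181c (ENSMUSG00000065483.2) and Mir181d (ENSMUSG00000076338.1) occupy chromosome 8 at 84178873 to 84178961 and 84178716 to 84178787, on the minus strand, 85 bases apart in an intron of Nanos3 of the same strand. Mir181a-2 (ENSMUSG00000065423.1) and Mir181b-2 (ENSMUSG00000065578.1) occupy chromosome 2 at 38852735 to 38852810 and 38853830 to 38853918, on the plus strand with 1019 bases between them. Both lie within an intron of Nr6a1, which is annotated on the opposite strand, and Mir181b-2 also overlaps an exon of the opposite-strand gene Gm44144. Mir181a-1 (ENSMUSG00000065565.1) and Mir181b-1 (ENSMUSG00000065458.1) occupy chromosome 1 at 137966455 to 137966541 and 137966639 to 137966718, on the plus strand with 97 bases between them. Both overlap an exon of the long noncoding gene A430106G13Rik and lie within an intron of the noncoding gene Gm4258, all on the plus strand.

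Depth and tissue were checked before the members were compared. Sense reads of miRNA genes, the total to which counts were scaled as CPM (reads per 1000000 of these reads), numbered 6783227 in replicate 1 and 3084602 in replicate 2. Reads that mapped to several places, 30.3% and 32.1% of all reads of the tables, were assigned to no gene. Mir375, a marker of neuroendocrine cells, stood at 58718 and 82443 CPM in replicates 1 and 2, and the endothelial Mir126a at 92610 and 52519 CPM. Of the smooth muscle markers, Mir143 stood at 28851 and 25009 CPM and Mir145a at 642 and 621 CPM in the same order. Of the 5 striated muscle genes checked, 4 had 0 reads in both libraries, and all 5 together reached 3.69 and 3.57 CPM. These 4 were Mir1a-1, Mir1a-2, Mir133a-1 and Mir133a-2. Each has a paralog by name, so their reads may have been left unassigned. Their counts of 0 therefore do not show that striated muscle was absent. In replicates 1 and 2, the liver marker Mir122 stood at 257 and 57.7 CPM, and the red cell marker Mir451a at 5351 and 1949 CPM. Both were higher in replicate 1, whereas the blood and lymphoid genes Mir142, Mir150 and Mir223 were higher in replicate 2. Mir155 and Mir146 were higher in replicate 1, so the blood genes did not differ in a single direction. The part of such differences between the libraries in the values of the members was not tested. No miRNA marker specific to the adrenal gland was used, so these values do not identify the organ.

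The family held 12556 of the sense miRNA reads in replicate 1, or 0.185% (Wilson 95% interval 0.182 to 0.188), and 5961 in replicate 2, or 0.193% (0.188 to 0.198). The total thus varied little between the libraries, and its mean was 0.189% ± 0.00576 (SD, n = 2). The intervals narrowly fail to overlap, that of replicate 1 ending at 0.18837 and that of replicate 2 starting at 0.18841. These and all intervals below cover counting error only. Single genes ranged from a mean of 918 CPM for Mir181c to one of 2.36 CPM for Mir181b-1. A miRNA read spans a whole mature strand, so CPM was not divided by hairpin length, and sequences may differ in how well they are captured.

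Mir181c was the most abundant by mean, with 5716 reads or 843 CPM in replicate 1 and 3065 reads or 994 CPM in replicate 2. Mir181d followed with 4724 reads or 696 CPM and 1896 reads or 615 CPM. Mir181c was above Mir181d in both libraries, but its own values differed by 151 CPM between the replicates while the gap to Mir181d in replicate 1 was 146 CPM. At this spread the 2 genes were not ordered, where an order requires that both libraries rank a pair alike and that both gaps exceed the replicate difference of either gene. With TMM factors, DESeq2 size factors or the counts of both strands together, the same pair did meet the requirement. The TMM and DESeq2 factors were computed with no minimum level, so genes of few reads entered them.

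Mir181b-2 had 1403 reads or 207 CPM in replicate 1 and 711 reads or 231 CPM in replicate 2. Mir181a-1 had 552 reads or 81.4 CPM and 231 reads or 74.9 CPM. Mir181a-2 had 151 reads or 22.3 CPM and 48 reads or 15.6 CPM. These 3 genes formed a descending series in which no values overlapped between neighbours.

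Mir181b-1 was the lowest, with 10 reads in each library, or 1.47 CPM (exact Poisson 95% interval 0.707 to 2.71) in replicate 1 and 3.24 CPM (1.55 to 5.96) in replicate 2. The 3 reads that a count of 0 allows correspond to 0.442 and 0.973 CPM, so Mir181b-1 stood above this floor in both libraries. On the opposite strand all 6 genes had 0 reads in both libraries, which allows up to 3 reads each.

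**Figure D1:**
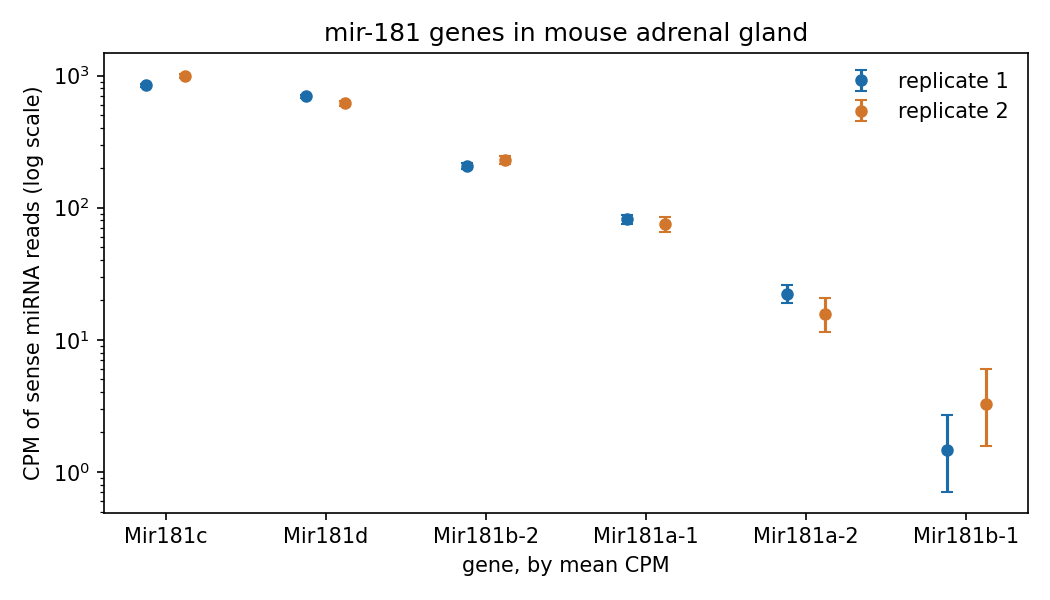
CPM of each mir-181 gene (log axis) in replicate 1 (left point of each pair) and replicate 2 (right point), with exact Poisson 95% intervals for counting error. The genes descend from Mir181c, at 843 and 994 CPM, to Mir181b-1, at 1.47 and 3.24 CPM, and the points of neighbouring genes do not overlap.

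Of the 15 pairs among the 6 genes, 14 were ordered beyond the replicate spread, the exception being Mir181c and Mir181d. Among all pairs of the 280 miRNA genes with a mean of at least 10 CPM, 75.4% were ordered by the same requirement. Mir181b-1 is below that level, and among the 5 members that reach it 9 of 10 pairs were ordered. Within the libraries the genes ranked from 76th and 70th (Mir181c) and 81st and 91st (Mir181d) to 371st and 323rd (Mir181b-1), out of 666 genes with reads in replicate 1 and 586 in replicate 2. Mir181b-2 ranked 137th and 130th, Mir181a-1 178th and 183rd, and Mir181a-2 242nd and 255th.

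As shares of the family, Mir181c held 45.5% (Wilson 95% interval 44.7 to 46.4) of reads in replicate 1 and 51.4% (50.1 to 52.7) in replicate 2. Mir181d held 37.6% (36.8 to 38.5) and 31.8% (30.6 to 33.0). The intervals of the replicates do not overlap for either gene, so the split between them varied by more than counting error. Their summed share was nevertheless 83.1% (82.5 to 83.8) in replicate 1 and 83.2% (82.3 to 84.2) in replicate 2.

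The chromosome 2 cluster of Mir181a-2 and Mir181b-2 held 12.4% (11.8 to 13.0) and 12.7% (11.9 to 13.6) of family reads. The chromosome 1 cluster of Mir181a-1 and Mir181b-1 held 4.48% (4.13 to 4.85) and 4.04% (3.57 to 4.57). For each of the 3 clusters the intervals of the replicates overlapped.

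**Figure D2:**
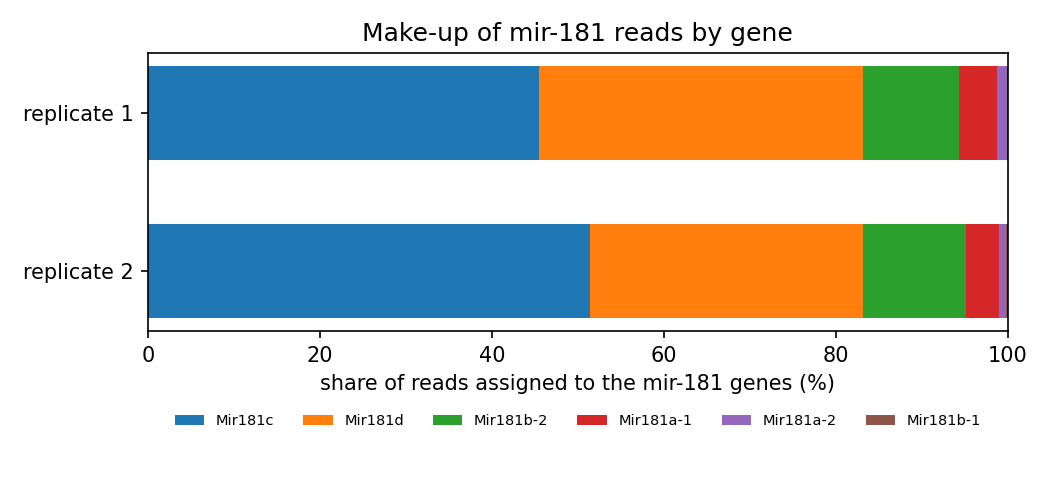
Share of the reads assigned to the mir-181 genes that each gene held, in percent, for replicate 1 (upper bar) and replicate 2 (lower bar). Mir181c and Mir181d together fill 83.1% and 83.2% of the bars, and the border between them lies further right in replicate 2.

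Mates of 1 cluster, which can be cut from a common transcript, stood at unequal levels to different degrees. Mir181c was 1.21-fold (exact binomial 95% interval 1.16 to 1.26) above Mir181d in replicate 1 and 1.62-fold (1.53 to 1.71) in replicate 2. Among 98 neighbouring pairs of miRNA genes on 1 strand, at most 10000 bases apart and each of at least 10 CPM, the ratio of the higher to the lower mean had a median of 5.27 and quartiles of 1.72 and 17.1. The ratio of the means of Mir181c and Mir181d, 1.40, was above that of 14 of these pairs, and that of Mir181b-2 and Mir181a-2, 11.6, was above that of 66. Mir181b-1 was below 10 CPM, so its pair with Mir181a-1, whose ratio of means was 33.1, was outside the 98. The 98 pairs were not limited to genes with a mature sequence of their own. Unassigned reads may therefore have a part in their ratios, which was not tested.

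In the chromosome 2 cluster, Mir181b-2 was 9.29-fold (7.85 to 11.1) above Mir181a-2 in replicate 1 and 14.8-fold (11.1 to 20.3) in replicate 2. In the chromosome 1 cluster it was the a gene that was higher, with Mir181a-1 55.2-fold (29.8 to 116) and 23.1-fold (12.3 to 48.8) above Mir181b-1. By assigned reads, the a and b genes thus stood in opposite order in the paralogous clusters, and both orders held beyond the replicate spread. The part of unassigned reads in these ratios of cluster mates was not tested.

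Genes with the same mature 5p sequence differed as well. Mir181a-1 was 3.66-fold (3.05 to 4.41) above Mir181a-2 in replicate 1 and 4.81-fold (3.51 to 6.71) in replicate 2. Mir181b-2 was 140-fold (76.1 to 293) above Mir181b-1 in replicate 1 and 71.1-fold (38.4 to 149) in replicate 2. These are ratios of reads that mapped to 1 place, and what such reads can be is set by the sequence of each hairpin.

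The hairpins of the 4 genes with a shared 5p sequence are printed to show where paralogs part. They are from RefSeq (GRCm38.p6), 5′ to 3′, with both mature arms in capitals and the flanks and loop in lower case.

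Mir181a-1: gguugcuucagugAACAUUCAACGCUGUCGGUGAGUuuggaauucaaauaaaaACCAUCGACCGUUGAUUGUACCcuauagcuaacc

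Mir181a-2: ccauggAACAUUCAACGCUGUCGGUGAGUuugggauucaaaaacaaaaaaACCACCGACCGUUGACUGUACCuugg

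Mir181b-1: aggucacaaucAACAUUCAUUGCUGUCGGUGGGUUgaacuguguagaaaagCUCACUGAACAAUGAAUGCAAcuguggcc

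Mir181b-2: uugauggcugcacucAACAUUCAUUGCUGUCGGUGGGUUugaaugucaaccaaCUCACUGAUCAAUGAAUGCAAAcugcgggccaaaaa

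Around the 5p arm, Mir181a-1 and Mir181a-2 are identical over 28 bases, made up of the 23 mature bases, 1 base before them and 4 after. Mir181b-1 and Mir181b-2 are identical over 26 bases, the 24 mature bases and 2 before them, and part directly after the mature sequence. A read that lies wholly within such a stretch matches 2 hairpins and is counted for neither gene.

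To describe which reads could be counted, all windows of 18 to 25 bases starting within 3 bases of the 5′ end of each annotated arm were matched exactly, on both strands, to the hairpins of the 2202 genes. For Mir181c and Mir181d all windows of both arms belonged to 1 hairpin, 112 of 112 and 106 of 106. For the 5p arm of Mir181a-1 and of Mir181a-2, 17 of 56 windows did, and for that of Mir181b-1 and of Mir181b-2, 18 of 56. Every 3p window of these 4 genes belonged to 1 hairpin, 56 of 56 for each gene but Mir181a-2, where it was 53 of 53.

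Of the 8 windows that start exactly at the annotated 5p end, 0 belonged to 1 hairpin for either a gene. For either b gene 1 did, the window of 25 bases, which is 1 base longer than the annotated miRNA. The annotated miR-181a-5p and miR-181b-5p themselves are therefore absent from these counts where a read matches them exactly, and the values of the 4 a and b genes describe 3p reads and 5p reads that reach beyond the shared stretch. The tables do not separate these kinds. The levels of miR-181a-5p and miR-181b-5p in this tissue were not measured by the counts, and Mir181c and Mir181d standing above the a and b genes is an order of assigned reads.

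**Figure D3:**
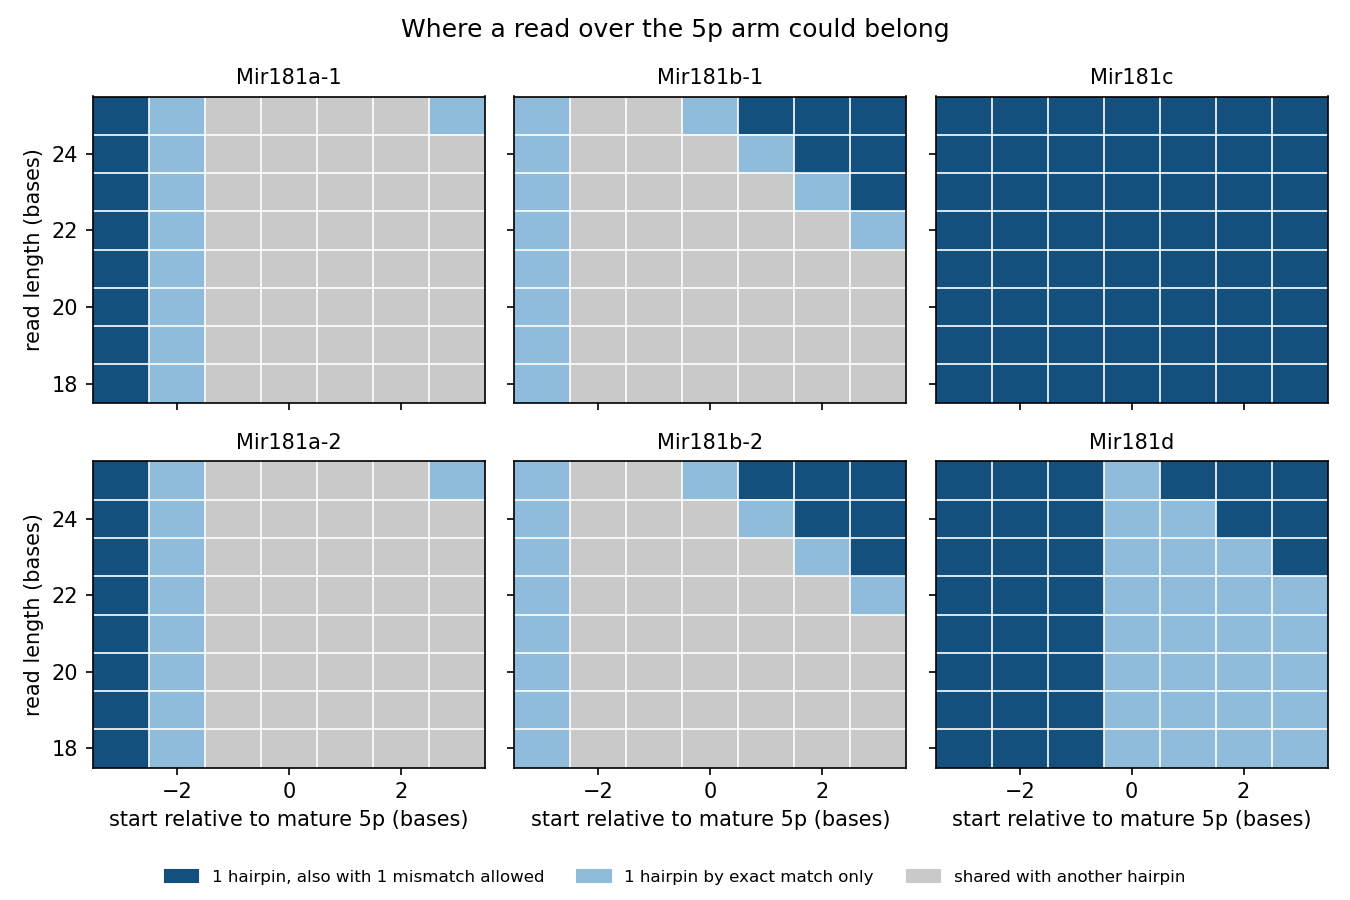
Windows over the 5p arm of each gene by start relative to the annotated 5p end (horizontal, bases) and length (vertical, bases). Dark blue marks windows of 1 hairpin even with 1 mismatch allowed, light blue those of 1 hairpin by exact match alone, and grey those shared with another hairpin. Grey covers 39 of 56 windows for the a genes, 38 of 56 for the b genes and 0 for Mir181c and Mir181d.

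Over both arms, 74 of 112 windows belonged to 1 hairpin for Mir181b-1 and for Mir181b-2, 73 of 112 for Mir181a-1 and 70 of 109 for Mir181a-2. Paralogs lose the same windows to each other, so these counts are close within a pair by construction, and the part of unassigned reads in the ratios between paralogs was not tested. When windows within 1 mismatch of another hairpin were also set aside, 30 of the 56 5p windows of Mir181d were left, against 56 of 56 for Mir181c. Whether the authors' alignment treated such near matches as multiple is not given in the sources used here. Across the RefSeq table, 97 of 1058 genes with a mature sequence, or 9.17%, share one with another gene.

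The hairpins also differ in composition. GC content was 58.4% for Mir181c and 51.4% for Mir181d, and between 42.5% and 46.1% for the 4 a and b genes. The folding energy predicted by RNAfold was -45.6 kcal/mol for Mir181c, and between -33.2 and -27.1 kcal/mol for the other 5. GC content was thus highest in the 2 genes with the most reads, and its part in the counts was not tested.

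The replicates gave similar levels for the members. Of the 5 genes with a mean of at least 10 CPM, 0 were at least 2-fold apart, while 10.7% of the 280 miRNA genes of that level were. At that share, 0 of 5 does not set the family apart. On the scale of log2(CPM + 1), replicate 1 minus replicate 2, Mir181a-2 differed by 0.49, Mir181d by 0.18, Mir181a-1 by 0.12, Mir181b-2 by -0.16 and Mir181c by -0.24. Their median absolute difference was 0.18, against 0.28 over the 280 genes.

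Counting error alone left different amounts of this open. The CPM ratio of replicate 1 over replicate 2 was 0.848 (exact binomial 95% interval 0.812 to 0.886) for Mir181c and 1.13 (1.07 to 1.20) for Mir181d, intervals on opposite sides of 1. It was 0.897 (0.819 to 0.983) for Mir181b-2, 1.43 (1.03 to 2.02) for Mir181a-2 and 1.09 (0.930 to 1.27) for Mir181a-1. For Mir181b-1, which was below 10 CPM and entered none of these counts, it was 0.455 (0.170 to 1.22), an interval that includes both equality and more than a 2-fold difference. Its difference on the log2(CPM + 1) scale was -0.78.

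**Figure D4:**
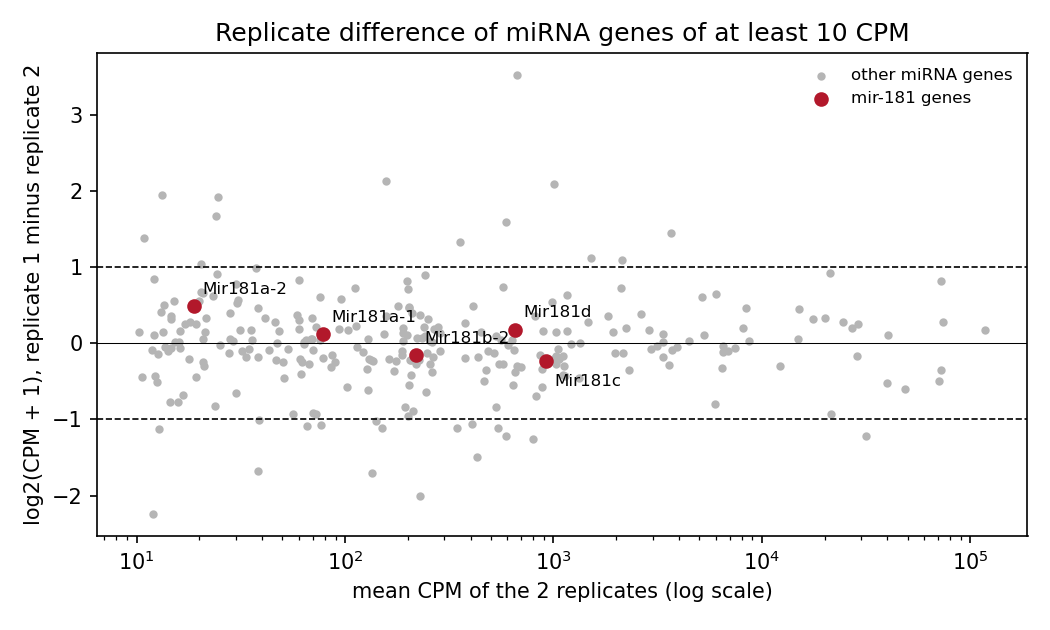
Difference of log2(CPM + 1), replicate 1 minus replicate 2, against mean CPM (log axis) for the 280 miRNA genes with a mean of at least 10 CPM, with dashed lines at a 2-fold difference. The 5 mir-181 genes shown (red) lie between -0.24 and 0.49, inside the dashed lines, while 30 genes lie on or outside them.

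The miRNA gene nearest to each member in log2(CPM + 1) of the 2 libraries was found by Euclidean distance. It was Mir341 for Mir181c, at 776 and 978 CPM (distance 0.12), and Mir434 for Mir181d, at 693 and 631 CPM (0.037). For Mir181b-2 it was Mir16-2, at 209 and 242 CPM (0.074), for Mir181a-1 Mir3072, at 76.7 and 74.2 CPM (0.086), for Mir181a-2 Mir200c, at 23.7 and 15.9 CPM (0.093), and for Mir181b-1 Mir5620, at 1.47 and 2.92 CPM (0.11). With 2 libraries, likeness here means a similar level.

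Cell types in which the family is known from other work were compared through listed miRNA genes. Of the 6 blood and lymphoid genes, 5 stood below Mir181c beyond the replicate spread. Mir181c ranked 76th of 666 genes with reads in replicate 1 and 70th of 586 in replicate 2. Most genes thus stood below it, and the count of 5 does not set the blood and lymphoid genes apart. Among the 5 were the pan-leukocyte Mir142 at 249 and 282 CPM and Mir150 of mature lymphocytes at 162 and 191 CPM. The activation-induced Mir155 was another, at 161 and 147 CPM. The myeloid Mir223 stood at 38.3 and 73.6 CPM, and Mir146b had 1 read in replicate 1 and 0 in replicate 2. Mir146, a feedback regulator of NF-kB, was not separated from Mir181c, at 1412 and 912 CPM. The endothelial Mir126a was far above every member.

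Of the 11 neuroendocrine and neuronal genes, Mir375 and Mir7b were above Mir181c beyond the replicate spread, Mir7b at 4535 and 4423 CPM. Mir7-1 stood at 250 and 233 CPM and Mir7-2 at 113 and 143 CPM. Mir137, a miRNA of neurons, overlapped Mir181c at 713 and 1057 CPM. The other 6, the Mir9 and Mir124a genes, had at most 1 read in each library. Like those of Mir7-1 and Mir7-2, their mature sequences are encoded at several loci, so reads from them may have been left unassigned and their levels were not compared with Mir181c. These values place the family among other miRNAs of the tissue and do not assign it to a cell type.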

How the data were processed

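The deposited values of each library are read counts per miRNA gene, made by the authors for both strands together and for each strand, and per the labels and the text beside the tables the assembly was mm10 with GENCODE M21. The aligner, with its settings, is not named in the sources used here. The strand of each column was identified from its layout and totals. All 2202 gene identifiers matched GENCODE M21, which gave names, positions and hairpins. Sense counts were scaled to 1000000 sense miRNA reads per library, and reads mapping to several places were outside all counts. Reads of a CAST allele compared with mm10 may have been lost.

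Means, SD, Wilson, exact Poisson and exact binomial 95% intervals were computed with Python 3.11.15 and SciPy 1.17.1. A single group allows no test between conditions, and no p-value was computed. Replicate differences used a pseudocount of 1 CPM and a limit of 1 in log2. Folding used ViennaRNA 2.7.2, and alternative scalings edgeR 4.0.16 (TMM) and DESeq2 1.42.0. The 2-fold call was tested on simulated counts that held Poisson error only. The order requirement, window matching and edit distance were checked on small made-up examples, and the other steps were not tested this way. The members and gene lists were chosen with earlier results of these data known. Named genes are the members, the nearest gene to each by level, and the listed genes. Intervals cover counting error only, since no molecular identifiers were available.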

Additional observations from a re-analysis of the deposited data

How the results depend on the processing

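The family share depended on the total it was divided by. It was 0.116% with multimapping reads in the total, 0.0935% of all reads and 0.212% with the counts of both strands together, against 0.189% as reported, and 0.185% to 0.193% when either replicate was left out. With both strands together the counts of the members were unchanged. The total of all miRNA genes was smaller than the sense total, at 5909413 reads in replicate 1 and 2810275 in replicate 2. Pairs of members ordered beyond the replicate spread numbered 14 of 15 as reported and 15 of 15 with TMM factors, DESeq2 size factors or both strands together. Genes at least 2-fold apart between replicates numbered 30 as reported, 19 with a minimum of 100 CPM, 58 with no minimum, 29 with TMM factors, 25 with DESeq2 size factors and 31 with a pseudocount of 0.5 CPM. No mir-181 gene was among them under any scaling or pseudocount tried. For Mir181b-1 this rests on the pseudocount, since its CPM ratio of replicate 1 over replicate 2 was 0.455. Its log2 difference was -0.78 with a pseudocount of 1 CPM and -0.92 with 0.5 CPM. With no minimum 703 genes were compared, and with a minimum of 100 CPM 173. The median difference was -0.01 as reported, 0.09 with TMM factors and 0.12 with DESeq2 size factors, and the split of the genes past 2-fold was 13 higher in replicate 1 and 17 higher in replicate 2 as reported, 17 and 12 with TMM factors, and 17 and 8 with DESeq2 size factors. Windows belonging to 1 hairpin made up 76.8% of all 663 as reported, 76.2% at 22 bases, 76.8% against all GENCODE M21 transcripts and 61.2% with 1 mismatch allowed, the last 2 settings having been added after seeing the data. A match to the whole genome was not run. Leaving out a replicate allows no order and no replicate difference. No paired analysis was possible because there was 1 group.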

Other observations

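The Mir181c and Mir181d cluster lies near another miRNA cluster, described here after its values were seen. Mir23a, Mir27a and Mir24-2, genes known from vessels and blood, start 29557 to 29854 bases away on chromosome 8 and are transcribed from the opposite strand. In replicates 1 and 2, Mir23a stood at 38635 and 58734 CPM, Mir27a at 598 and 732 CPM and Mir24-2 at 165 and 241 CPM. All 3 were higher in replicate 2, as was Mir181c at 843 and 994 CPM, while Mir181d was higher in replicate 1 at 696 and 615 CPM. Their counts are lower limits where mature sequences are shared with paralogs. No other miRNA gene with more than 1 read lay within 100000 bases of any mir-181 cluster.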
